A study of Mus musculus with 12 samples.

Results

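Signalling from interleukin-6 (IL-6) and interleukin-1 (IL-1) to hepatocytes was examined through 10 genes read from the liver RNA-seq table, namely Il6ra, Il6st, Lifr, Osmr, Stat3, Socs3, Il1b, Il1rn, Il1r1 and Nfkbia. The genes were taken by symbol, and all 10 were found among the 23849 symbols of the table. The livers came from 12 male C57BL/6 mice, 8 weeks old in the design text, all on a high-fat diet (HFD). For 2 weeks the mice received vehicle (Cntrl) or Libramed, the name the labels use for the tested product that the study calls Policaptil Gel Retard, a gut-acting preparation given by oral gavage. The study describes 4 weeks of HFD before this treatment. Livers were collected at ZT0 or ZT12, zeitgeber times counted from lights on, so ZT0 is the start of the light phase and ZT12 the start of the dark phase. In the study's methods both treatments were gavaged daily just before lights off. Livers at ZT12 thus came soon after a gavage and those at ZT0 much later. Time of day and time since gavage cannot be told apart here. Each of the 4 groups (Cntrl ZT0, Cntrl ZT12, Libramed ZT0 and Libramed ZT12) held 3 mice, and no group on a normal diet was analysed here. Values are FPKM, fragments scaled to transcript length and to the mapped fragments of the library, so levels are given per length.

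IL-6 binds its receptor IL-6R (gene Il6ra) and the shared signalling chain gp130 (Il6st), and the Janus kinases on gp130 then phosphorylate STAT3, which enters the nucleus and switches on acute-phase genes together with its own inhibitor Socs3. Leukaemia inhibitory factor and oncostatin M signal through the same chain, paired with their receptors LIFR and OSMR. IL-1 beta (Il1b) binds IL1R1, the decoy ligand encoded by Il1rn blocks that binding, and the bound receptor activates NF-kB, which is held in the cytoplasm by the inhibitor encoded by Nfkbia and induces that inhibitor. In the liver both pathways drive the acute-phase response, in which hepatocytes secrete serum amyloid A, fibrinogen and orosomucoid. STAT3 and NF-kB are mainly controlled by phosphorylation and by movement into the nucleus, which RNA levels do not measure.

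Across libraries the sum of FPKM ran from 634683 to 759355, relative depth differed by up to 1.78 times, and Pearson's r of log2(FPKM + 1) between libraries lay between 0.958 and 0.987. No 2 libraries held identical values. Hepatocyte markers were abundant in every library, with summed levels of 30397 to 45598 FPKM, although albumin (Alb) was listed at 0 in all 12. Replicate 3 of Libramed ZT12 stood apart: the skeletal muscle genes Ckm, Acta1 and Myh4 read 10.4, 16.4 and 4.55 FPKM there, against a sum of at most 0.00991 FPKM in any other library. Where a fold change reported below for 1 of the 10 genes changed sign, lost a call or moved by more than 1.5 times without this library, that value is also given. Some fold changes not reported below changed sign as well, such as that of Lifr over time in Libramed, from 0.12 to -0.099.

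The 10 genes ranged widely in level. Averaged over the 12 libraries, Lifr had the highest level at 53.6 FPKM, followed by Nfkbia at 27.4, Stat3 at 24.1, Il1r1 at 11.3, Il6st at 11.02, Il6ra at 8.53 and Socs3 at 6.47 FPKM. Il1rn (0.434), Il1b (0.417) and Osmr (0.325 FPKM) lay far lower. Neighbours in this order overlapped between single libraries, apart from the gap between Socs3, whose lowest library read 1.53 FPKM, and Il1rn, whose highest read 0.896 FPKM. Of the 10, 7 genes passed the minimum mean of 1 FPKM and entered the test across 9806 genes, and Il1rn, Il1b and Osmr did not.

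More of these genes differed between times of day than between treatments. Between ZT0 and ZT12, 3 of the 7 tested genes passed p under 0.05 in Cntrl mice (Il6ra and Il1r1 higher at ZT12, Stat3 lower), where 27.4% of all genes tested did. In Libramed mice 3 of 7 passed (Il6ra, Il1r1 and Nfkbia, all higher at ZT12), against 29.2% of all genes. Both counts rest on 7 genes and were not set apart from the background by a test. With the p adjusted over all genes, Il6ra alone passed in each treatment, where 10.4% of genes in Cntrl and 12.4% in Libramed did. For Libramed against Cntrl, 1 of 7 passed at ZT0 (Stat3, lower), against 9.23% of all genes, and 0 of 7 at ZT12, against 6.74%. None of the 7 passed when treatment was tested over both times, where 10.1% of genes did (0.0204% with adjusted p), and Stat3 alone passed the interaction of time and treatment, against 6.63% of genes. The smallest adjusted p of the 7 over both times was 0.502, for Stat3. The median log2 fold change of the 7 genes was 0.02 and 0.12 over time in Cntrl and Libramed, and -0.05 and -0.01 for treatment at ZT0 and ZT12, beside medians over all genes between -0.02 and 0.01.

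**Figure D1:**
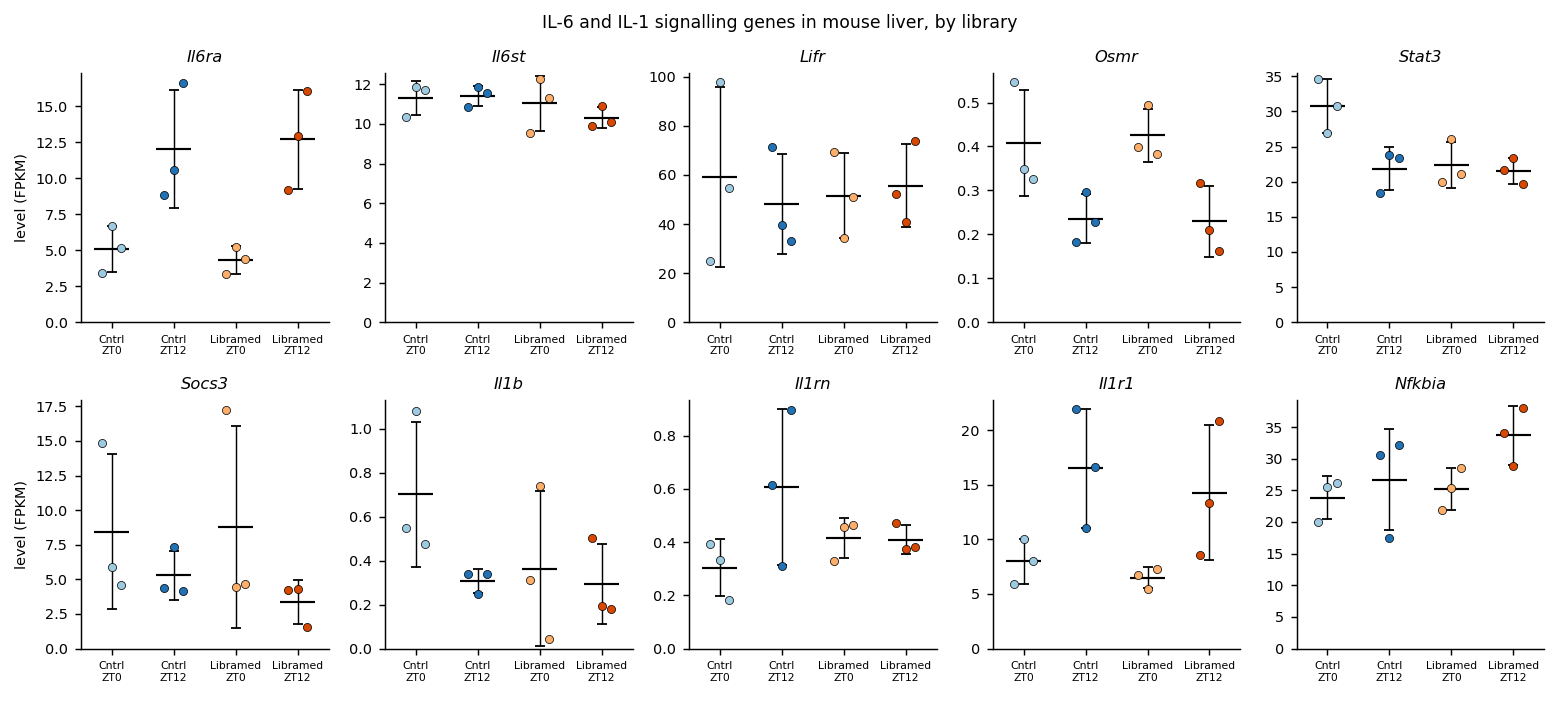
Level in FPKM (vertical axes, each from 0) of the 10 genes in each of the 4 groups. Points are single libraries, horizontal bars the mean of 3 mice and whiskers the SD. Il6ra and Osmr separate all 6 ZT0 libraries from all 6 ZT12 libraries, in opposite directions, and Stat3 is highest in Cntrl ZT0.

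**Figure D2:**
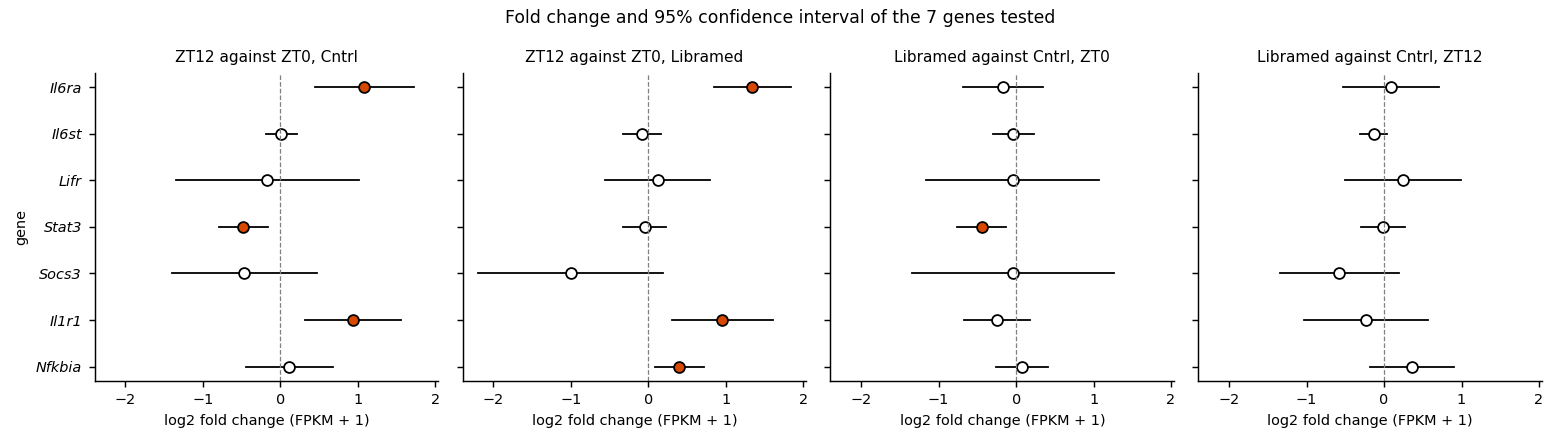
Log2 fold change on the log2(FPKM + 1) scale (horizontal axes) of the 7 genes tested, in 4 comparisons of 3 against 3 mice. Circles are estimates, filled where p was under 0.05, and bars are 95% confidence intervals. Il6ra and Il1r1 are filled over time in both treatments, and Stat3 over time in Cntrl and for treatment at ZT0.

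Among the receptors, Il6ra (ENSMUSG00000027947, chr3:89864059-89913196, minus strand, mm10), which encodes the IL-6 binding chain, changed the most over time. Its level read 3.44, 6.65 and 5.16 FPKM in the Cntrl ZT0 libraries and 8.80, 10.6 and 16.6 FPKM in the Cntrl ZT12 libraries. In Libramed mice it read 3.34, 5.23 and 4.41 FPKM at ZT0 and 9.14, 12.9 and 16.0 FPKM at ZT12. Every ZT12 library lay above every ZT0 library, a separation of 6 against 6 that 13.3% of the genes tested showed. The mean rose from 5.08 ± 1.61 to 12.002 ± 4.09 FPKM in Cntrl (SD, n = 3), 2.36-fold, and from 4.33 ± 0.946 to 12.7 ± 3.45 FPKM in Libramed, 2.93-fold. The log2 fold change was 1.09 in Cntrl (SE 0.27, adjusted p = 0.0489) and 1.35 in Libramed (SE 0.21, adjusted p = 0.0101), and without the library that held muscle genes it was 1.17 (adjusted p = 0.0301). Over 14 processing settings the adjusted p ran up to 0.137 in Cntrl and 0.0513 in Libramed, while the unadjusted p stayed under 0.05 in all 14. An antisense gene, Gm42809, shares 242 of the 8642 exonic bases of Il6ra. The change over time did not pass a test of difference between treatments (interaction 0.26, 95% confidence interval -0.56 to 1.08, exact permutation p = 0.53), and the treatment difference over both times was -0.04 (-0.44 to 0.35, exact permutation p = 0.835). Without the library that held muscle genes, these values were 0.086 and -0.13.

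The window upstream of Il6ra held a clock-type E-box. The 250 bases before each annotated start site were searched on both strands for 4 motifs, in the 14 RefSeq promoters (GRCm38.p6) that matched the 10 genes and in all 32851 promoters of the same set. The STAT motif TTCNNNGAA was in 7.02% of all promoters, the E-box CACGTG in 6.02%, the D-box TTANGTAA in 2.06% and the NF-kB motif in 7.25%. Of the 14 promoters, 1 held the STAT motif (Socs3), 1 the E-box (Il6ra), 0 the D-box and 2 the NF-kB motif (Nfkbia and the second of the Il1r1 promoters). A match is a stretch of letters and no evidence of binding. The Il6ra window, shown because the gene had the clearest change over time, lies at chr3:89913197-89913446 on the minus strand and holds the E-box, in capitals, at position -24 from the start site.
Il6ra: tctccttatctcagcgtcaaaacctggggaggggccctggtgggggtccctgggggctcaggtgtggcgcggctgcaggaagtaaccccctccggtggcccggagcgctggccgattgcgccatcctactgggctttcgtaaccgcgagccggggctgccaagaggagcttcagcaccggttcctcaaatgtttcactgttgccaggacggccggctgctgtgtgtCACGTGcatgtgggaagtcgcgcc

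Il6st and Lifr, receptor chains shared within the IL-6 family, did not pass the test in any comparison. Il6st, which encodes gp130 (ENSMUSG00000021756, chr13:112464070-112510086, plus strand), varied least between libraries of the 10 genes. It read 10.3, 11.9 and 11.7 FPKM in Cntrl ZT0, 10.9, 11.9 and 11.5 in Cntrl ZT12, 9.54, 12.2 and 11.3 in Libramed ZT0, and 9.91, 10.9 and 10.1 FPKM in Libramed ZT12. All 4 groups overlapped, and the log2 difference between Libramed and Cntrl at ZT12 was -0.14 (95% confidence interval -0.31 to 0.04, exact permutation p = 0.2), while that between ZT12 and ZT0 in Libramed was -0.08 (-0.33 to 0.16, p = 0.6). Lifr (ENSMUSG00000054263, chr15:7090614-7197489, plus strand), which encodes the leukaemia inhibitory factor receptor, overlapped between all 4 groups. It read 25.0, 97.7 and 54.5 FPKM in the 3 Cntrl ZT0 mice, a wider range than in the other groups. The other 3 groups ran from 33.0 to 71.3 (Cntrl ZT12), 34.4 to 69.3 (Libramed ZT0) and 40.9 to 73.9 FPKM (Libramed ZT12).

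Osmr (ENSMUSG00000022146, chr15:6813577-6874969, minus strand), the oncostatin M receptor, was scarce and lower at ZT12. It read 0.547, 0.349 and 0.326 FPKM in Cntrl ZT0 and 0.183, 0.296 and 0.229 FPKM in Cntrl ZT12. In Libramed it read 0.398, 0.495 and 0.383 FPKM at ZT0 and 0.317, 0.210 and 0.161 FPKM at ZT12. All 6 ZT12 libraries lay below all 6 ZT0 libraries, as did 119 of the 2382 genes with a mean of 0.2 to 1 FPKM, counting both directions. The means differed 1.73-fold in Cntrl and 1.86-fold in Libramed, and each exact permutation test gave p = 0.1 (two-sided), the smallest that 3 against 3 mice allow. When genes under 1 FPKM were kept in the limma fit, the log2 difference was -0.18 in Cntrl (adjusted p = 0.247) and -0.21 in Libramed (adjusted p = 0.117), both under an unadjusted p of 0.05, as 20.1% and 21.5% of those 17066 genes were. Markers of endothelial and stellate cells were lower at the same time. Of 6 endothelial markers tested (of 8 listed), 6 were lower at ZT12 in each treatment, where 13.0% (Cntrl) and 13.4% (Libramed) of all genes tested were lower. Their sum over the whole list ran from 29.0 to 38.6 FPKM in Cntrl ZT0 and 37.2 to 45.7 in Libramed ZT0, against 14.4 to 24.7 and 23.2 to 24.5 FPKM at ZT12. Of 6 stellate cell markers tested (of 8), 2 were lower in Cntrl and 6 in Libramed, with sums of 34.2 to 62.1 and 51.9 to 69.3 FPKM at ZT0 and 31.1 to 48.1 and 25.4 to 44.4 FPKM at ZT12. Of 7 macrophage markers tested, 1 was lower at ZT12 in Cntrl and 0 in Libramed. The part of these cells in the Osmr values was not tested, and in whole liver fewer cells of a type and less RNA per cell cannot be told apart.

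Stat3 (ENSMUSG00000004040, chr11:100885098-100939540, minus strand), the transcription factor that carries the IL-6 signal, was highest in Cntrl livers at ZT0. It read 34.6, 26.9 and 30.7 FPKM there, above every other library of the study. The remaining libraries read 18.4, 23.8 and 23.4 FPKM in Cntrl ZT12, 20.02, 26.1 and 21.0 in Libramed ZT0, and 21.7, 23.3 and 19.6 FPKM in Libramed ZT12. From ZT0 to ZT12 Stat3 fell in Cntrl from 30.7 ± 3.86 to 21.9 ± 3.05 FPKM (SD, n = 3), with a log2 fold change of -0.48 (SE 0.14, adjusted p = 0.0736). At ZT0 it was lower in Libramed, at 22.4 ± 3.23 FPKM, with a log2 fold change of -0.44 (SE 0.14, adjusted p = 0.477). In both pairs the groups did not overlap, as for 33.2% and 15.1% of all genes tested, and both unadjusted p stayed under 0.05 in all 14 settings. These comparisons share the Cntrl ZT0 mice. No difference passed between the times in Libramed (-0.05, 95% confidence interval -0.33 to 0.23, exact permutation p = 0.8) or between treatments at ZT12 (-0.01, -0.30 to 0.27, p = 0.8). Without the library that held muscle genes these values were 0.016 and 0.047.

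The test of whether the change of Stat3 over time differed between treatments gave an interaction of 0.43 on the log2 scale (0.02 to 0.84, adjusted p = 0.735), and an exact permutation test of the treatment labels within each time gave p = 0.125. The unadjusted p was under 0.05 in 9 of 18 settings, so the interaction depended on the setting. Over both times, Stat3 differed by -0.23 between treatments (-0.47 to 0.01, adjusted p = 0.502, exact permutation p = 0.08). Its unadjusted p passed 0.05 without replicate 1 of Cntrl ZT12 (-0.30) and without replicate 2 of Libramed ZT12 (-0.28). In GENCODE vM21 an exon of Stat5a on the opposite strand shares 72 of the 9527 exonic bases of Stat3, and Stat5a reached at most 7.65 FPKM.

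Socs3 (ENSMUSG00000053113, chr11:117966079-117970047, minus strand), the feedback inhibitor of gp130 signalling and a classical STAT3 target, was set apart by 2 single mice. Replicate 1 of Cntrl ZT0 read 14.9 FPKM beside 5.86 and 4.59 in its group, and replicate 1 of Libramed ZT0 read 17.2 FPKM beside 4.46 and 4.69. At ZT12 it read 4.40, 7.35 and 4.17 FPKM in Cntrl and 4.22, 4.32 and 1.53 FPKM in Libramed. The 3 Libramed ZT12 libraries lay below the 3 Libramed ZT0 libraries, narrowly for 2 of them. Groups did not overlap in this comparison for 34.9% of genes tested. The log2 difference of -1.003 for Socs3 did not pass the test (95% confidence interval -2.19 to 0.19, adjusted p = 0.243, exact permutation p = 0.1). Without the mouse at 17.2 FPKM it was -0.43, and without replicate 3 of Libramed ZT12 it was -0.65. In Cntrl the difference was -0.46 (-1.40 to 0.48, exact permutation p = 0.5), and without the mouse at 14.9 FPKM -0.01. With the replicate number as a block, the Libramed difference over time passed an unadjusted p of 0.05, as it did in a Cyber-T style test, which borrows the spread of genes of like level. The same 2 settings also called Socs3 lower in Libramed at ZT12, where the log2 difference of -0.58 otherwise had an exact permutation p = 0.3. Replicate numbers do not pair mice across groups, so the block has no basis in the design. Replicate 3 of Libramed ZT12, which held the muscle genes, had the lowest Socs3 level of the study, and without it that difference was -0.22.

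Within the upstream window, Socs3 was the only one of the 10 genes with a match to the STAT motif. It starts at position -154 and is in capitals in the stretch from chr11:117969452-117969616 on the minus strand, shown because Socs3 is a direct target of STAT3. The bases nearest to the start site are left out, since that stretch overlaps an annotated exon of another Socs3 transcript.
Socs3: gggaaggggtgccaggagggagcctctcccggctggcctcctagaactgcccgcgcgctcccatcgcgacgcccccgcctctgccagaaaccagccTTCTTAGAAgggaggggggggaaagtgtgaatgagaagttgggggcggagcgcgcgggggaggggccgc

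On the IL-1 side, Il1r1 (ENSMUSG00000026072, chr1:40225080-40317257, plus strand), the signalling receptor, had a pattern over time like that of Il6ra. It read 5.95, 10.03 and 8.00 FPKM in Cntrl ZT0 and 22.0, 11.1 and 16.6 FPKM in Cntrl ZT12. In Libramed it read 6.70, 5.43 and 7.29 FPKM at ZT0 and 8.62, 13.3 and 20.9 FPKM at ZT12. The times did not overlap within either treatment, as for 33.2% of genes tested in Cntrl and 34.9% in Libramed, although the lowest Libramed ZT12 library lay under the highest Cntrl ZT0 library. Il1r1 rose 2.07-fold in Cntrl (log2 fold change 0.94, SE 0.26, adjusted p = 0.0692) and 2.20-fold in Libramed (0.96, SE 0.28, adjusted p = 0.0660). Both unadjusted p stayed under 0.05 in all 14 settings, and the Libramed value without the library that held muscle genes was 0.66 (adjusted p = 0.109). The interaction was 0.02 (95% confidence interval -0.90 to 0.94, adjusted p = 0.994), and the treatment difference over both times -0.24 (-0.68 to 0.20, exact permutation p = 0.32), and without the library that held muscle genes these values were -0.28 and -0.37. The endothelial marker sums were lower at ZT12, while Il1r1 was higher. The part of any cell type in the Il1r1 values was not tested.

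The ligands of this receptor were near the limit of detection. Il1b (ENSMUSG00000027398, chr2:129364570-129371139, minus strand) read 0.550, 1.08 and 0.477 FPKM in Cntrl ZT0 and 0.341, 0.246 and 0.340 FPKM in Cntrl ZT12, without overlap. Of the genes tested, which all averaged at least 1 FPKM, 33.2% did not overlap there. In Libramed Il1b read 0.312, 0.738 and 0.0416 FPKM at ZT0 and 0.502, 0.196 and 0.179 FPKM at ZT12, with overlap. The 2.27-fold lower mean at ZT12 in Cntrl had an exact permutation p = 0.1, the smallest possible, and in the fit without a minimum FPKM the log2 difference was -0.36 (adjusted p = 0.248). The antisense gene Il1bos shares 25 of the 1907 exonic bases of Il1b and read at most 0.182 FPKM, and reads of the 2 genes cannot be told apart without strand. Il1rn (ENSMUSG00000026981, chr2:24336853-24351494, plus strand), the receptor antagonist, ran from 0.184 to 0.393 FPKM in Cntrl ZT0, 0.309 to 0.896 in Cntrl ZT12, 0.330 to 0.464 in Libramed ZT0 and 0.376 to 0.473 FPKM in Libramed ZT12. Its groups overlapped in every comparison, and the 2.00-fold higher mean at ZT12 in Cntrl had an exact permutation p = 0.3.

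Nfkbia (ENSMUSG00000021025, chr12:55489410-55492647, minus strand), which encodes the NF-kB inhibitor I-kappa-B alpha, was higher at ZT12 in Libramed mice. It read 21.8, 25.3 and 28.5 FPKM at ZT0 and 34.1, 28.9 and 38.1 FPKM at ZT12, without overlap, as for 34.9% of genes tested. Nfkbia rose from 25.2 ± 3.36 to 33.7 ± 4.62 FPKM (SD, n = 3), with a log2 fold change of 0.40 (SE 0.13, adjusted p = 0.0962). This call was lost in 4 of 14 settings, among them without replicate 1 of Libramed ZT0 (0.31), without replicate 1 of Libramed ZT12 (0.39) and without replicate 3 of Libramed ZT12, which held the muscle genes (0.31). In Cntrl it read 19.96, 25.5 and 26.1 FPKM at ZT0 and 30.5, 17.5 and 32.1 FPKM at ZT12, with overlap. That difference was 0.12 (95% confidence interval -0.44 to 0.67, exact permutation p = 0.6) and became 0.39, under an unadjusted p of 0.05, without replicate 2 of Cntrl ZT12. The 2 changes over time did not pass a test of difference (interaction 0.28, -0.36 to 0.92, exact permutation p = 0.5). At ZT12 the log2 difference between Libramed and Cntrl was 0.36 (-0.18 to 0.91, exact permutation p = 0.3). It passed an unadjusted p of 0.05 in the Cyber-T style test and with the replicate block, which has no basis in the design.

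The window before the Nfkbia start site, at chr12:55492648-55492897 on the minus strand, holds an NF-kB motif in capitals at position -29. It is shown because Nfkbia is a target that NF-kB induces.
Nfkbia: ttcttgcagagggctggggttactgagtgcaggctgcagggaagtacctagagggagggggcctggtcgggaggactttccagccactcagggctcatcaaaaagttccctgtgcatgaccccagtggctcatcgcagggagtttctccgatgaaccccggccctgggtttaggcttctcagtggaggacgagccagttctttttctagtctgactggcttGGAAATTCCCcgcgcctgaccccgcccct

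Several other ligands of the IL-6 family were nearly silent. Il6 itself read 0.0393 FPKM in replicate 2 of Libramed ZT0 and 0 in the other 11 libraries, and oncostatin M (Osm), leukaemia inhibitory factor (Lif) and Il11 each stayed at or under 0.0811 FPKM in every library. Ctf1, which encodes the family ligand cardiotrophin-1, was detected in all 12 libraries, at 3.80 to 10.3 FPKM. Levels of the other receptors and the kinases varied. Cntfr, the ciliary neurotrophic factor receptor, averaged 0.550 to 1.06 FPKM by group and Il11ra1, the IL-11 receptor, 16.9 to 23.2 FPKM by group, Jak1 13.7 to 14.7 and Tyk2 4.80 to 6.50 FPKM. Of 13 genes tested from a list of 22 in this pathway, 2 rose and 2 fell over time in Cntrl, and likewise 2 and 2 in Libramed, where 27.4% and 29.2% of all genes passed, so these shares lie near the background. The counts for Libramed against Cntrl were 0 higher and 1 lower at each time (Cebpb at ZT0 and Ctf1 at ZT12, beside 9.23% and 6.74% of all genes), with list medians of -0.06 at both.

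The transcription factor genes that act with STAT3 in hepatocytes supplied most of those calls. Cebpb, a driver of acute-phase transcription, rose over time from 68.9 ± 10.7 to 120.3 ± 36.5 FPKM in Cntrl (log2 fold change 0.76, adjusted p = 0.0902) and from 48.9 ± 3.24 to 139.2 ± 8.39 FPKM in Libramed (1.49, adjusted p = 0.00047). At ZT0 its level was lower in Libramed (-0.48, adjusted p = 0.436), and the 3 Libramed libraries at 45.3 to 51.6 FPKM lay below the 3 Cntrl libraries at 61.4 to 81.2 FPKM. Groups did not overlap there for 15.1% of genes tested. Stat3 and Cebpb thus were both lower in Libramed at ZT0, in comparisons on the same 6 mice. Cebpd, a related factor, rose in Cntrl (0.70, adjusted p = 0.0320) and in Libramed (0.97, adjusted p = 0.00625). Bcl3, an atypical I-kappa-B protein that STAT3 induces, fell over time in Cntrl from 35.4 ± 5.001 to 23.0 ± 1.55 FPKM (-0.59, adjusted p = 0.0271), and Junb, an immediate early gene, fell in Libramed from 21.6 ± 3.95 to 9.73 ± 2.70 FPKM (-1.09, adjusted p = 0.0198). In Cntrl the mean of Junb went from 25.3 ± 12.3 to 13.6 ± 5.68 FPKM without passing (-0.81, adjusted p = 0.215). The interaction for Junb was -0.28 (adjusted p = 0.951).

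**Figure D3:**
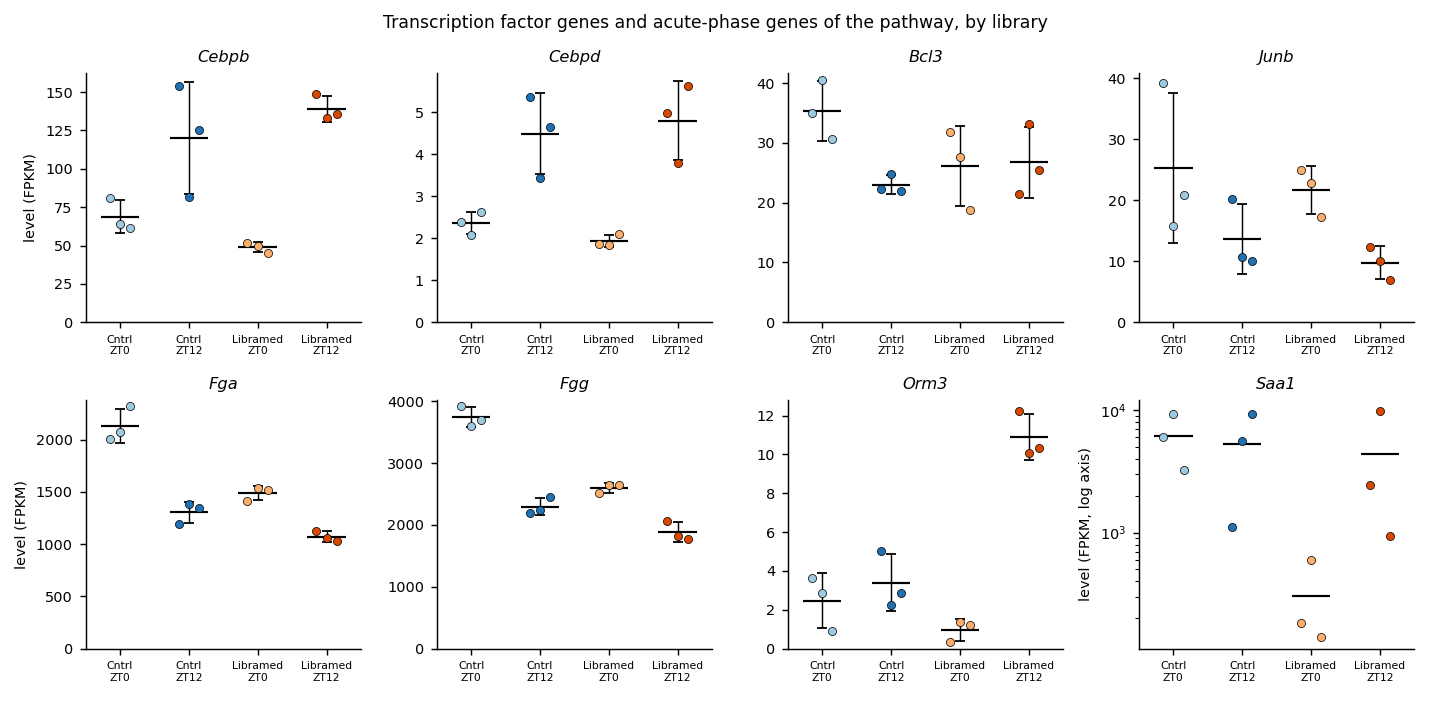
Level in FPKM (vertical axes, from 0 except for Saa1, which has a log axis) of 4 transcription factor genes and 4 acute-phase genes in each group. Points are single libraries, horizontal bars the mean of 3 mice and whiskers the SD, not drawn for Saa1. Cebpb and Cebpd are higher at ZT12 in both treatments, and Saa1 is lowest in the 3 Libramed ZT0 libraries.

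Among 19 genes tested of 26 in the IL-1 and NF-kB list, 2 rose and 4 fell over time in Cntrl, and 4 rose and 4 fell in Libramed, beside 27.4% and 29.2% of all genes. Chuk, an I-kappa-B kinase, rose in Cntrl (0.36, adjusted p = 0.0436) and did not pass in Libramed (0.16, adjusted p = 0.316). Tab2, an adaptor of the TAK1 kinase, fell in Cntrl (-0.38, adjusted p = 0.0648) and in Libramed (-0.40, adjusted p = 0.0447). Irak2, a kinase next to the IL-1 receptor, fell in Cntrl (-0.59, adjusted p = 0.0545) and in Libramed (-0.34, adjusted p = 0.0585), and Nfkbib, which encodes I-kappa-B beta, fell in Cntrl (-0.35, adjusted p = 0.0392). Treatment moved 2 higher and 1 lower of the 19 at ZT0 and 0 at ZT12 (limma, p under 0.05), beside 9.23% and 6.74% of all genes. The list medians were -0.08 and 0.01.

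**Figure D4:**
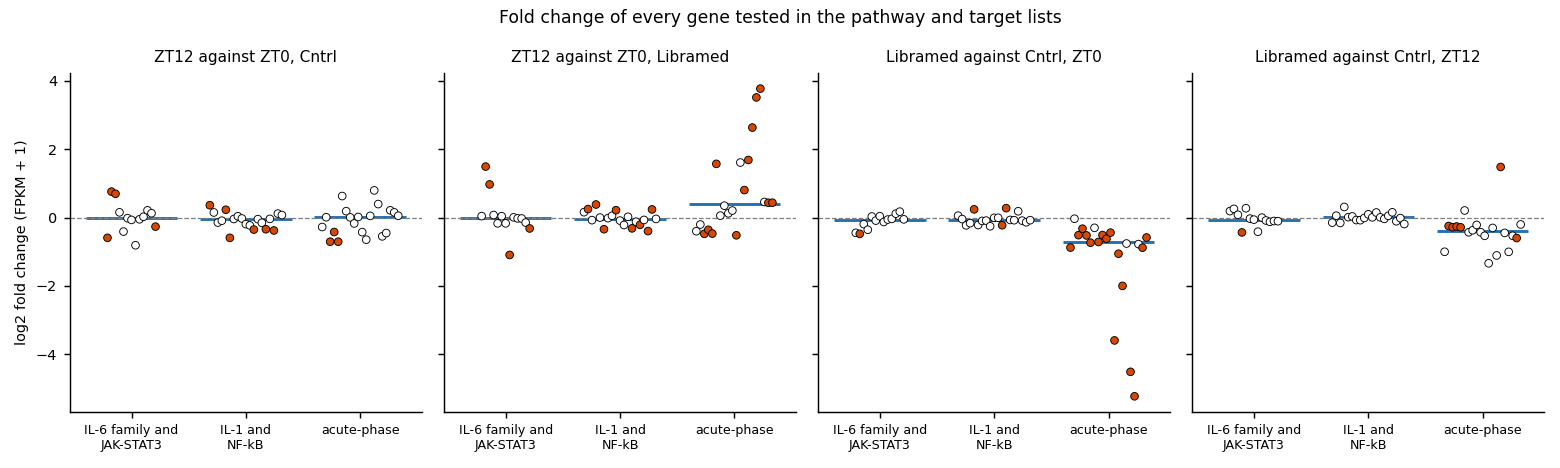
Log2 fold change on the log2(FPKM + 1) scale (vertical axis) of every gene tested in 3 lists, in 4 comparisons of 3 against 3 mice. Filled points had p under 0.05, and blue bars are list medians. The acute-phase genes lie below 0 at ZT0 in Libramed against Cntrl, with a median of -0.72, while the medians of the other lists stay within 0.08 of 0.

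The acute-phase genes listed as targets of IL-6 or IL-1 were mostly lower in Libramed, at ZT0 and over both times. Of 20 genes tested, 16 were lower in Libramed at ZT0, 0 higher, with a median log2 fold change of -0.72, where 5.81% of all genes were lower. Saa1, a serum amyloid A gene, read 6050, 9291 and 3252 FPKM in Cntrl ZT0 and 183, 593 and 139.8 FPKM in Libramed ZT0 (log2 fold change -4.51, adjusted p = 0.264). Its reads may be split with the near-identical Saa2. Fga and Fgg, fibrinogen chains, had log2 fold changes of -0.52 each at ZT0 (adjusted p = 0.316 and 0.309). At ZT12, 1 was higher and 5 were lower, beside 6.74% of all genes called, with a median of -0.40. Of the 20 fold changes there, 2 were above 0. Tested over both times, 17 were lower and 0 higher, with a median of -0.51, beside 10.1% of all genes called. None of the 20 passed an adjusted p of 0.05 in these 3 treatment comparisons. The interaction of time and treatment passed for 3 of the 20, beside 6.63% of all genes. Over time, 0 of the 20 rose and 3 fell in Cntrl, where 27.4% of all genes passed. In Libramed 8 rose and 4 fell, where 29.2% of all genes passed. Among the genes of both pathways, Stat3, Cebpb and Nfkbib (-0.23), which encodes an inhibitor of NF-kB, were lower in Libramed at ZT0 (limma, p under 0.05). In the IL-1 and NF-kB list 2 genes passed in the other direction. Il6ra, Il6st, Lifr, Socs3, Il1r1 and Nfkbia did not pass. At ZT12 neither Stat3 (-0.01) nor Cebpb (0.25) passed. A link between these genes and the acute-phase genes was not tested.

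Kupffer cells, the liver macrophages, are a source of IL-6 and IL-1. Of 7 macrophage markers tested (of 10), 4 were lower in Libramed at ZT0, where 5.81% of all genes tested were lower. None of the 7 passed an adjusted p of 0.05. The 4 included Vsig4, C1qa and Cd68, whose calls were lost in a fit over all 12 libraries. The list summed to 57.3 to 65.4 FPKM in Cntrl ZT0 and 36.0 to 57.2 FPKM in Libramed ZT0. At ZT12 the sums were 29.2 to 72.2 FPKM in Cntrl and 34.6 to 56.8 FPKM in Libramed. There 0 of 7 were called (limma, p under 0.05), beside 6.74% of all genes. Neutrophil markers summed to 1.70 to 11.2 FPKM in Cntrl ZT0 and 6.86 to 11.6 FPKM in Libramed ZT0. At ZT12 they summed to 0.928 to 3.66 FPKM in Cntrl and 2.72 to 19.8 FPKM in Libramed. Of 2 tested (of 10), S100a8 was called higher in Libramed over both times (0.92, adjusted p = 0.466), beside 10.1% of all genes called. That call was lost with the replicate block and with some single libraries left out. Lymphocyte markers summed to at most 2.29 FPKM in any library. The part of these cell types in the levels of Stat3, Il1b and the acute-phase genes was not tested.

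Genes whose pattern over the 12 libraries was most like that of Stat3, by Pearson's r of log2(FPKM + 1), were Tspan14 (0.941), Litaf (0.900), Rnf114 (0.897), Naprt (0.893) and Tmem19 (0.889). For Socs3 they were Rita1 (0.870), Tsta3 (0.853), Timm13 (0.846), Pigt (0.840) and BC031181 (0.835). These values describe the 12 libraries, which share groups, and were not recomputed without the 2 libraries with high Socs3 levels.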

How the data were processed

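Liver RNA-seq of 12 mice was analysed, 3 in each of 4 groups taken from the labels. The authors deposited their values as FPKM, in 1 table for all libraries. The submitters' processing notes name TopHat and Cuffnorm with mm10 (GRCm38), while the methods of the study describe ELAND alignment of uniquely mapped reads to mm10 and call the unit RPKM. The labels name the TruSeq RNA kit v2 and the methods a stranded kit, so strand is uncertain. Where a symbol recurred (289 lines), only its most abundant line was used. The 9806 genes averaging 1 FPKM or more over the 12 libraries were analysed as log2(FPKM + 1), so fold changes of low genes are understated. Comparisons of 6 mice used limma 3.58.1 (lmFit, eBayes with trend, two-sided) in R 4.3.3, at p under 0.05 as in the study, with Benjamini-Hochberg adjustment over all genes. Interaction and treatment over both times used all 12 libraries. Single genes were also tested by exact permutation, and members under the minimum by that test and in a fit without the minimum. The fit was tested on simulated data. Read counts are not given, so the spread of 3 mice sets the precision and relative depth comes from genes under 0.1 FPKM. Members and lists were chosen with earlier results of these data known, and list counts are descriptions. At most 4 genes per list are named, those with the smallest p in any comparison. Levels of further genes (Il6, Osm, Lif, Il11, Ctf1, Il11ra1, Cntfr, Jak1, Tyk2, Ckm, Acta1 and Myh4) are given as context and were chosen after their values were seen. Coordinates come from GENCODE vM21 and promoter sequences from RefSeq. Each result was recomputed with median-ratio or quantile scaling, with 0.1 as pseudocount, without the FPKM minimum, in 1 fit of all 12 libraries, with the replicate block, by a Cyber-T style test and with each library left out. Replicate numbers name separate mice and do not pair them across groups.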

Additional observations from a re-analysis of the deposited data

Results flagged for a closer look

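The difference between treatments in the change over time passed an unadjusted p of 0.05 in the interaction test (limma, Benjamini-Hochberg over 9806 genes) for 7 genes named here, none past an adjusted p of 0.05. Stat3 gave 0.43 on the log2 scale (adjusted p = 0.735), with a fall over time in Cntrl and no called change in Libramed; its exact permutation p was 0.125 and it passed in 9 of 18 settings. Cebpb gave 0.73 (adjusted p = 0.665), with the larger rise in Libramed. Bcl3 gave 0.63 (adjusted p = 0.725), with 23.0 FPKM at ZT12 in Cntrl beside 26.7 in Libramed, and lost the call under quantile normalization and with any of 7 single libraries left out. Nfkbib gave 0.37 (adjusted p = 0.519), with 23.6 and 18.3 FPKM at ZT0 and ZT12 in Cntrl beside 20.03 and 20.4 FPKM in Libramed. Orm3, an orosomucoid gene, gave 2.24 (adjusted p = 0.428), with all 3 Libramed ZT12 libraries at 10.1 to 12.2 FPKM and no other library above 5.05. Saa1 gave 4.06 (adjusted p = 0.597). Col3a1, a collagen gene of the stellate cell list, gave -0.68 (adjusted p = 0.726), and lost the call with no minimum FPKM, with the replicate block and with any of 8 single libraries left out. Of all genes tested, 6.63% passed p under 0.05 in this test.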

How the results depend on the processing

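Of the single-gene values compared across processing alternatives that kept all libraries, 432 kept their direction and side of the threshold, 12 lost the call, 9 gained one and 1 reversed: Stat3 for treatment at ZT12 under median-ratio scaling, at 9.4e-05. Over single libraries left out, the values that changed sign ranged from -0.12 to 0.064 (Stat3 over time in Libramed), -0.13 to 0.049 (Stat3 for treatment at ZT12), -0.033 to 0.39 (Nfkbia over time in Cntrl), -0.14 to 0.054 (Il6ra for treatment over both times) and -0.28 to 0.31 (Il1r1 interaction), none called in the fit as reported. The number of the 10 genes called over time in Cntrl was 5 with no minimum FPKM, since Osmr and Il1b then entered. For treatment at ZT12 it was 2 with the replicate block and 2 in the Cyber-T style test (Socs3 and Nfkbia). For the interaction it was 0 under median-ratio scaling and 0 with the replicate block. With each library left out it ran from 1 to 2 for treatment at ZT0 (Il1r1 was added without replicate 1 of Cntrl ZT0), 0 to 1 for the interaction and 0 to 1 for treatment over both times. Replicate numbers gave correlations of -0.28 to 0.34 between same-numbered mice, over 0.1 in 4 of 18 pairs. In 3 of these 18 comparisons the best match had the same number. The replicate block moved genes with an adjusted p under 0.05 over time from 1020 to 279 in Cntrl and from 1212 to 709 in Libramed. Genes with p under 0.05 rose from 905 to 1392 for treatment at ZT0, from 661 to 1139 at ZT12 and from 650 to 1050 for the interaction with no minimum FPKM, as more genes were tested, and fell to 525 at ZT0 without replicate 3 of Libramed ZT0. With no minimum FPKM, genes with an adjusted p under 0.05 numbered 515 in Cntrl and 639 in Libramed over time, and a fit of all 12 libraries gave 1539 in Cntrl. The Cyber-T style test gave 69 for treatment at ZT0 and 23 at ZT12, where the limma fit gave 0. The split into higher and lower genes at ZT0, 335 and 570, became 431 and 429 under median-ratio scaling, and over both times 375 and 616 became 535 and 429. Read counts are not given, so no counting error could be set on any value, those of the scarce Il1b, Il1rn and Osmr included.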
